A study of Mus musculus with 15 samples.

Results

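Genes of the red blood cell were followed through RNA sequencing of the mouse submandibular gland, a salivary gland. There were 5 of them, the alpha-globin genes Hba-a1 and Hba-a2, the beta-globin genes Hbb-bs and Hbb-bt, and Alas2. They were taken by name from a deposited table that lists 32479 genes, so that 5 of 32479 genes are described. The data are 15 libraries, 1 per sample and 5 in each of 3 groups: wild-type ICR mice without treatment (control), wild-type NOD/LTJ mice without treatment (model), and wild-type NOD/LTJ mice treated with SJQYD. ICR is an outbred stock, and NOD/LTJ is an inbred strain studied as a model of Sjögren's syndrome, an autoimmune disease of the salivary and tear glands. The labels give SJQYD only by its letters, without dose or duration, and do not give the age or sex of the mice or how they are related, so p-values measure the spread between these samples only. Model and control differ in strain as well as in disease, and these cannot be told apart here.

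Hemoglobin, the oxygen carrier of red cells, is built from pairs of alpha- and beta-globin chains, each holding a heme group. The alpha genes and the beta genes lie in separate clusters, each with an adult pair that is nearly the same in its coding sequence, and red cell precursors balance the output of the clusters. Alas2 encodes the red cell form of 5-aminolevulinate synthase, which starts heme synthesis, and Alas1 encodes the form used by other tissues. Mature red cells of mammals have no nucleus, and the globin messenger RNA of whole tissue comes largely from reticulocytes, the youngest circulating red cells, within the vessels. Mouse strains carry different beta-globin haplotypes, and Hbb-bs and Hbb-bt are the names of the pair in the single (Hbb s) haplotype.

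The members of each adult pair differ by 1 coding base in the annotated sequence of the GRCm38 build, which bears on how their reads can be told apart. Hba-a1 (ENSMUSG00000069919) lies at chr11:32283511-32284465 on the plus strand and Hba-a2 (ENSMUSG00000069917) at chr11:32296489-32297298 on the same strand. Hbb-bs (ENSMUSG00000052305) lies at chr7:103826534-103827928 and Hbb-bt (ENSMUSG00000073940) at chr7:103812524-103813996, both on the minus strand. Each globin gene has 3 exons. Counted from 1 at the first coding base, the alpha pair differs by C381T (the base of Hba-a1 first) and the beta pair by C417T (the base of Hbb-bs first), so that each pair is identical at 99.77% of its coding bases. Both substitutions fall on the last position of a codon, codon 127 in the alpha pair and codon 139 in the beta pair. The stretches around these bases, from the GENCODE M21 transcripts, are given 5′ to 3′ with the differing base in capitals, for coding bases 356 to 406 of the alpha genes and 392 to 441 of the beta genes.
Hba-a1: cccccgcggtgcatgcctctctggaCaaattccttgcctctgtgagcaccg
Hba-a2: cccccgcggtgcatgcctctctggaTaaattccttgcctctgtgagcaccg
Hbb-bs: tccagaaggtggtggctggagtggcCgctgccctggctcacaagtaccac
Hbb-bt: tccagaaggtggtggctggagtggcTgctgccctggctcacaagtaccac

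Of all 150-base windows of the annotated transcripts, the length of 1 sequenced read, 48.4% in Hba-a1 and 65.7% in Hba-a2 occur unchanged in the other alpha transcript. The share was 58.7% for Hbb-bs and 50.7% for Hbb-bt within the beta pair. How reads that match both copies were assigned is not given in the sources used here, so the split between the members of a pair is uncertain, and the sum of a pair is free of that split but not of whether such reads were kept. Strain differences in these sequences were not examined.

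In windows before the RefSeq starts, the globin genes shared motifs and Alas2 differed. The 100 bases before the RefSeq start (GRCm38.p6) are given 5′ to 3′ on the strand of the gene for 1 alpha gene, 1 beta gene and Alas2 (ENSMUSG00000025270, chrX:150547375-150570638, plus strand, 11 exons). Capitals mark matches on either strand to 4 motifs. They are CACCC, the kind of sequence that Klf1 binds, the promoter element CCAAT, the Gata1 motif written as GATAA, and the TATA box sequence ATATAA. The windows lie at chr11:32296392-32296491 (plus strand), chr7:103827929-103828028 (minus strand) and chrX:150547317-150547416 (plus strand), in this order.
Hba-a2: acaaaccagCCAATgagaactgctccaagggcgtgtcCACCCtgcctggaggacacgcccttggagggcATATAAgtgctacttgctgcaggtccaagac
Hbb-bs: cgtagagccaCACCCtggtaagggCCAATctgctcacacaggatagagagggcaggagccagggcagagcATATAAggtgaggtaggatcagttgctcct
Alas2: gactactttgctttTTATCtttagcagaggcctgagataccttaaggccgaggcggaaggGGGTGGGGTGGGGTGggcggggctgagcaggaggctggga

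All 4 globin windows held the CACCC motif, the CCAAT element and the TATA box sequence, the last starting 28 to 31 bases before the start. The Alas2 window held CACCC 3 times and GATAA once, all on the opposite strand, and neither of the other motifs. Among 32851 promoter windows of this length, CACCC was present in 27.2%, CCAAT in 18.9%, GATAA in 8.55% and ATATAA in 3.74%. Aligned windows were identical at 94.2% of positions within the alpha pair and at 75.5% within the beta pair. A match is a description of the letters and not evidence of binding. The RefSeq starts are not always the deposited gene starts. The Alas2 window runs past the deposited start of its gene, and the Hba-a1 window lies wholly past that of Hba-a1. Windows before other starts were not examined, so a motif missing here may lie outside the window used.

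The deposited counts summed to between 39510018 and 68694263 per library. Mucl2, a mucin-like secretory gene of the submandibular gland, made up 15.5% to 53.8% of them, and Egf was counted in every library. Control 2, model 3 and SJQYD 1 were the highest in genes of the neighbouring parotid gland: 7 parotid markers summed to 38408 to 143333 CPM (counts scaled to the library size with edgeR's TMM factors) in these 3 libraries and to 17.3 to 17512 CPM in the other 12. Model 1 (17512 CPM) and control 1 (11174 CPM) came next, so the cut after 3 libraries is a choice. In SJQYD 3, Xist, which coats and silences 1 X chromosome in female cells, had 65 counts against 5801 to 26004 in the other libraries. Where leaving out these libraries was seen to change a call, the value without them is given. This was not examined for Cat, Tnnt3, Ryr1 and Eno3, or for Cygb with both NOD/LTJ groups set against control.

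Globin RNA was a small but readily measured part of the gland's RNA. The 4 globin genes together took 0.00548% to 0.0474% of the counts of a library, and every globin gene had at least 318 counts in every library. In FPKM, which takes gene length into account, Hba-a1 had the highest level of the 5 genes, with a median of 147.7 over the 15 libraries. Hba-a2 and Hbb-bs followed with medians of 54.0 and 53.9 FPKM, then Hbb-bt with 28.8 and Alas2 with 1.003. Hba-a2 stood below Hba-a1 in every library, at 0.177 to 0.416 of its FPKM, and Hbb-bt stood below Hbb-bs in every library, at 0.421 to 0.625. The order of Hba-a2 and Hbb-bs, neighbours with nearly equal medians, turned between groups. Hbb-bs had the higher FPKM in all 5 control libraries, and Hba-a2 had it in 4 of 5 model libraries and 2 of 5 SJQYD libraries. Their means were 16.5 ± 14.7 and 35.7 ± 24.5 FPKM in control (SD, n = 5) and 70.5 ± 20.9 and 60.9 ± 18.7 FPKM in model (SD, n = 5).

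The other hemoglobin genes were absent or nearly so. The embryonic genes Hba-x, Hbb-y, Hbb-bh0, Hbb-bh2 and Hbb-bh3, and Hbq1b, had no count in any library. Embryonic Hbb-bh1 had 4 counts in SJQYD 2 and 0 elsewhere, and Hbq1a, a theta-like alpha-cluster gene, had at most 4 counts in a library. Cygb (cytoglobin, a globin of fibroblasts and other tissue cells) averaged 8.66 ± 2.28, 12.8 ± 3.16 and 12.7 ± 1.92 CPM in control, model and SJQYD (SD, n = 5). Cygb, named after its values were seen, was called by edgeR only with both NOD/LTJ groups set against control, with an adjusted p of 0.0471. With 3 counts taken as the limit that a count of 0 allows, genes could not be seen below 0.0290 to 0.0840 CPM, depending on the library. Such limits cover counting error only. The highest deposited count was 4 for each of Hbb-bh1, Hbq1a, Epb42, Rhag and Kel, so 1 deposited count may not equal 1 read. The limits may then be too low, and how low counts arose was not tested.

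Hba-a2 was the only one of the 5 genes to change between model and control at an adjusted p under 0.05. Its normalised counts were 16.0, 32.6, 7.83, 6.16 and 13.6 CPM in control 1 to 5. In model 1 to 5 they were 59.4, 57.8, 38.7, 44.5 and 45.1 CPM, all above the highest control library. Hba-a2 rose from 15.2 ± 10.5 CPM in control to 49.1 ± 9.03 CPM in model (SD, n = 5), which is 3.22-fold, with a log2 fold change of 1.69 ± 0.42 (SE) and an adjusted p of 0.0361 in edgeR's quasi-likelihood test. Of the 18136 genes tested, 5.07% were called in this comparison and 2.57% were called as higher in model. Groups did not overlap for 5.77%, and every model library was above every control library for 3.05%. More red cells in the tissue and more globin RNA per red cell cannot be told apart in bulk RNA. The split of reads between Hba-a1 and Hba-a2 is uncertain as well, and its part in this call was not tested.

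The call for Hba-a2 was close to the threshold, while its direction held. It was called in 7 of 15 fits that left out 1 library, with log2 fold changes from 1.49 to 2.16 and adjusted edgeR p-values from 0.00357 to 0.0852. It was lost without control 1, 3, 4 or 5 and without model 1, 2, 3 or 5. Its adjusted p was also 0.0731 in edgeR without a filter on low counts and 0.0618 in edgeR with only the model and control libraries.

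Hba-a1 lay higher in model with 1 control library in its range. Its normalised counts were 64.7, 165, 41.4, 35.1 and 93.9 CPM in control 1 to 5 and 208, 232, 175, 130.3 and 187 CPM in model 1 to 5. Control 2 stood above model 4, and the other control libraries stood below every model library. The means were 80.1 ± 53.0 and 186 ± 38.2 CPM (SD, n = 5), with a log2 fold change of 1.22 ± 0.37 (SE; 95% interval 0.43 to 2.00). The edgeR adjusted p was 0.0716, short of the threshold. Control 2, the highest control library for Hba-a1, Hba-a2 and Hbb-bt, was also 1 of the 3 rich in parotid transcripts. Without control 2 Hba-a1 was called, with a log2 fold change of 1.65 and an edgeR adjusted p of 0.00511, and without all 3 of those libraries the values were 1.67 and 0.0135. Hba-a1 was also called by DESeq2, with an adjusted p of 0.0341.

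**Figure D1:**
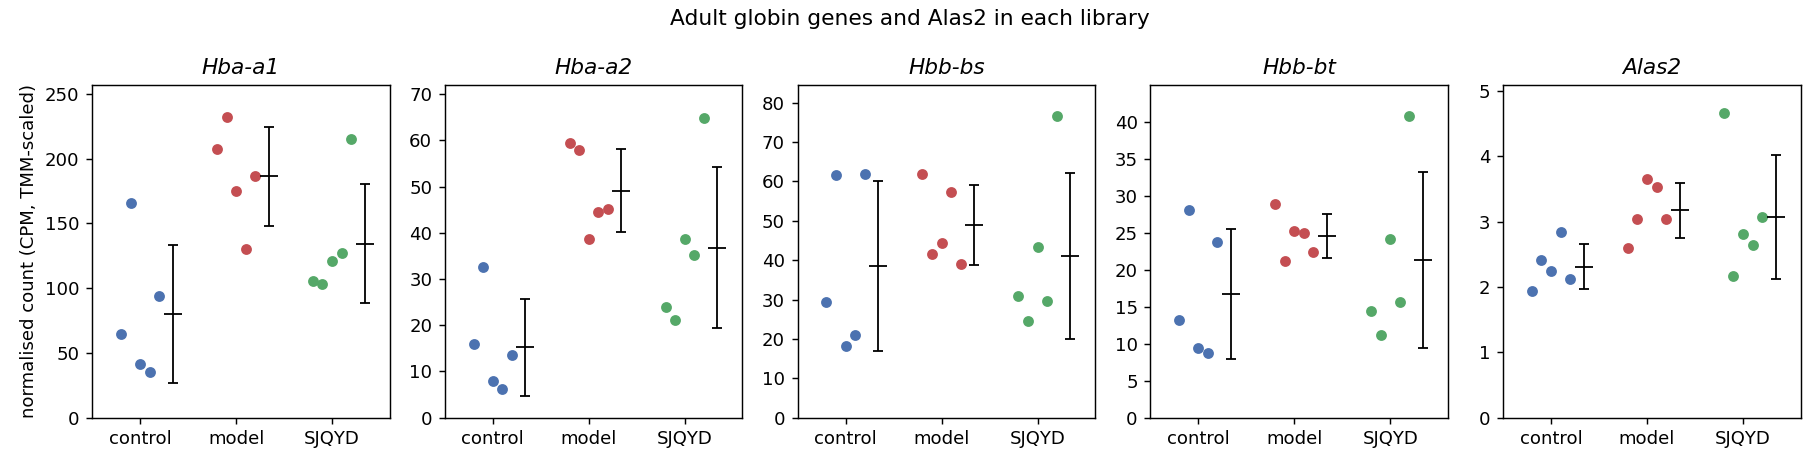
Normalised counts (CPM, scaled by TMM factors) of the 5 genes in each of the 15 libraries, with points in the order of replicates 1 to 5 and, to their right, the mean and SD of each group (n = 5). Hba-a2 is above the highest control library (32.6 CPM) in all 5 model libraries, while the groups of the beta-globin genes overlap.

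The beta-globin genes overlapped between the groups. Hbb-bs had 29.5, 61.7, 18.2, 21.1 and 61.8 CPM in control 1 to 5 and 62.0, 41.7, 44.5, 57.3 and 39.0 CPM in model 1 to 5. Control 2 and control 5 were nearly as high as the highest model library, and the other 3 control libraries lay below all model libraries. The means of Hbb-bs were 38.4 ± 21.6 and 48.9 ± 10.1 CPM (SD, n = 5), with a log2 fold change of 0.35 ± 0.38 (SE; 95% interval -0.48 to 1.17) and an edgeR adjusted p of 0.652. Hbb-bt had 13.2, 28.1, 9.43, 8.71 and 23.8 CPM in control 1 to 5 and 28.9, 21.2, 25.2, 25.004 and 22.3 CPM in model 1 to 5. Its libraries fell in the same pattern, with control 2 and control 5 inside the model range. The log2 fold change of Hbb-bt was 0.56 ± 0.37 (SE; 95% interval -0.25 to 1.36), with an edgeR adjusted p of 0.420.

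Spread between control libraries was wide for the globins and narrow for Alas2. Within control, the highest library stood 4.71-fold above the lowest for Hba-a1, 5.29-fold for Hba-a2, 3.39-fold for Hbb-bs and 3.23-fold for Hbb-bt. The same spans within model were 1.37-fold to 1.78-fold. For Alas2 the control span was 1.47-fold and the model span 1.40-fold. Within SJQYD the spans were 2.09-fold (Hba-a1) to 3.63-fold (Hbb-bt) for the globins and 2.15-fold for Alas2. The SJQYD spans of Hbb-bt and Alas2 were thus wider than those in control.

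Alas2 had few counts, 69 to 482 per library. Its normalised counts were 1.93, 2.41, 2.24, 2.83 and 2.12 CPM in control 1 to 5 and 2.602, 3.04, 3.65, 3.53 and 3.04 CPM in model 1 to 5. Of the 5 model libraries, 4 stood above every control library, and model 1 lay below control 4. The means were 2.31 ± 0.343 and 3.17 ± 0.424 CPM (SD, n = 5), with a log2 fold change of 0.46 ± 0.21 (SE; 95% interval 0.02 to 0.89) and an edgeR adjusted p of 0.207.

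The size of differences between model and control depended on how libraries were scaled. Over all genes tested the median was 0.03 (log2) with TMM factors, 0.52 with total counts alone and 0.28 on the log2(FPKM + 1) scale. In the same order the values for Hba-a2 were 1.69, 2.11 and 2.30, above that shift each time. On the log2(FPKM + 1) scale Hba-a1 and Hba-a2 were both called, with adjusted p-values of 0.0107 and 0.00267 in limma.

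Next, the SJQYD libraries were compared with the model libraries of the same strain. None of the 5 genes was called by edgeR, against 2.75% of all genes tested, and none had an unadjusted p under 0.05. DESeq2 and limma on voom or FPKM values called none of them either. Hba-a1 had 106, 103, 121, 127 and 215 CPM in SJQYD 1 to 5, so that SJQYD 5 lay within the model range and the other 4 lay below the lowest model library. Its mean was 134 ± 46.2 CPM (SD, n = 5), with a log2 fold change of -0.47 ± 0.36 (SE; 95% interval -1.25 to 0.31) and an edgeR adjusted p of 0.587. Hba-a2 had 24.0, 21.2, 38.7, 35.2 and 64.9 CPM, with SJQYD 5 above every model library and the other 4 below the lowest, though SJQYD 3 and model 3 are equal to the digits given. Its log2 fold change was -0.42 ± 0.41 (SE; 95% interval -1.29 to 0.46).

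The remaining 3 genes differed less between these groups. Hbb-bs had 31.0, 24.5, 43.5, 29.6 and 76.7 CPM and Hbb-bt 14.5, 11.2, 24.2, 15.7 and 40.8 CPM in SJQYD 1 to 5. SJQYD 5 was the highest of all 15 libraries for both, and SJQYD 2 was the lowest of its group for both. The log2 fold changes were -0.25 (95% interval -1.07 to 0.57) and -0.21 (95% interval -1.01 to 0.59). Alas2 had 4.67, 2.17, 2.81, 2.64 and 3.07 CPM, with SJQYD 1 the highest of all 15 libraries. Its log2 fold change was -0.04 (95% interval -0.48 to 0.39), and the sign turned to 0.16 with total counts alone and to 0.02 on the log2(FPKM + 1) scale. The intervals of all 4 globins extend to -1.01 or lower, so a missed threshold here does not show that the groups are alike.

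Against control, the SJQYD libraries gave no call among the 5 genes in edgeR. This comparison shares its libraries with the others and is not independent of them. The background was 11.1% of all genes tested. Hba-a2 had the largest log2 fold change of the 5, 1.27 ± 0.41 (SE; 95% interval 0.38 to 2.16), with an edgeR adjusted p of 0.0648 and an unadjusted p of 0.00866, the only unadjusted p of the 5 under 0.05. Hba-a1 followed with 0.75 ± 0.36 (SE) and an edgeR adjusted p of 0.208. Hbb-bs had 0.09, Hbb-bt 0.35 and Alas2 0.41. Without control 2, both alpha genes were called: Hba-a1 with a log2 fold change of 1.20 and an edgeR adjusted p of 0.0158, and Hba-a2 with 1.76 and 0.00606. Without the 3 libraries rich in parotid transcripts both were called as well, with 1.26 and 1.87. DESeq2 called Hba-a2 alone, with an adjusted p of 0.0225.

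When the mean of both NOD/LTJ groups was set against control, Hba-a2 was called and the other 4 genes were not. This contrast joins strain and disease, and 5 of its 10 NOD/LTJ libraries were treated. The background was 10.1% of all genes tested, and 4.31% called as higher. Hba-a2 had a log2 fold change of 1.48 ± 0.38 (SE) and an edgeR adjusted p of 0.0265. It was called in 11 of 15 fits without 1 library. Hba-a1 had 0.98 ± 0.33 (SE) with an edgeR adjusted p of 0.0717, and it was called without control 2, with an adjusted p of 0.00425.

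**Figure D2:**
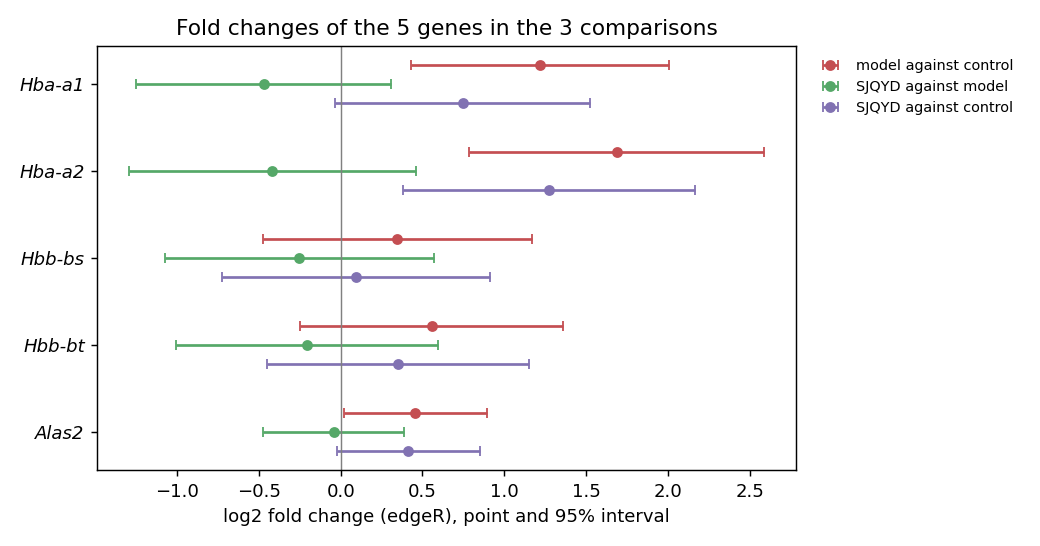
Log2 fold changes of the 5 genes in 3 comparisons from edgeR, as points with 95% intervals for single genes. Only the intervals of Hba-a1, Hba-a2 and Alas2 in model against control and of Hba-a2 in SJQYD against control lie wholly above 0, and all intervals of SJQYD against model cross 0.

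Ratios within a library compare the genes without any scaling between libraries. Alpha- to beta-globin counts stood at 1.89, 2.21, 1.78, 1.39 and 1.26 in control 1 to 5, at 2.94, 4.61, 3.06, 2.12 and 3.78 in model 1 to 5, and at 2.86, 3.47, 2.36, 3.59 and 2.38 in SJQYD 1 to 5. Of the 10 NOD/LTJ libraries, model 4 alone lay within the control range. The means were 1.70 ± 0.385, 3.30 ± 0.939 and 2.93 ± 0.583 (SD, n = 5). Model exceeded control 1.92-fold (log2 difference 0.94 ± 0.24, SE), with a two-sided exact permutation p of 0.0159. SJQYD exceeded control 1.73-fold with no overlap and an exact permutation p of 0.00794, the smallest that 5 against 5 libraries can give. SJQYD and model differed by a log2 difference of -0.15 ± 0.23 (SE), with an exact permutation p of 0.540.

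None of the 12 ratio tests (4 ratios in 3 comparisons) passed the threshold after adjustment over the family, and the adjusted value for both differences in alpha to beta ratio from control was 0.0952 by the exact permutation test. With the 10 NOD/LTJ libraries pooled against the 5 control libraries, a test chosen after the data were seen, the log2 difference was 0.86, or 1.82-fold. The exact permutation p was 0.000666 and the value adjusted over the 4 ratios 0.00266. Of the 10 NOD/LTJ libraries, 9 lay above the highest control library. Differences of strain in the globin sequences could change how reads were assigned, and this was not tested.

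**Figure D3:**
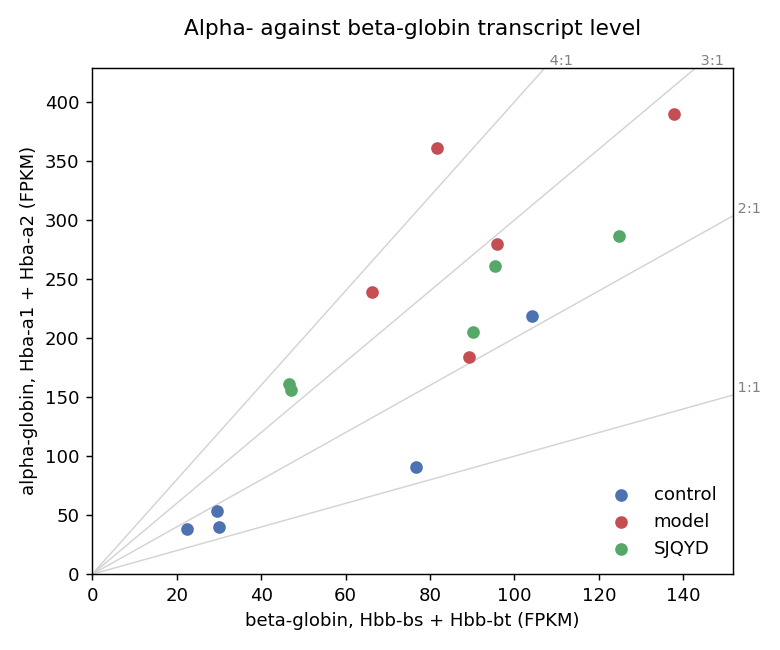
Summed FPKM of the alpha-globin genes against that of the beta-globin genes, 1 point per library, with grey lines at fixed ratios from 1:1 to 4:1. Control libraries lie below the 2:1 line except control 2, at a ratio of 2.10. The NOD/LTJ libraries lie above the line, with model 4 nearest to it at 2.06.

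Deposited counts within the pairs leaned toward the lesser copy in the NOD/LTJ libraries, with overlap between the groups. The split of shared reads between the copies is uncertain, and its part in these ratios was not tested. The ratio of Hba-a2 to Hba-a1 counts averaged 0.191 ± 0.0371 in control, 0.268 ± 0.0473 in model and 0.266 ± 0.0485 in SJQYD (SD, n = 5). The exact permutation p was 0.0238 for model against control and 0.0397 for SJQYD against control, each with an adjusted value of 0.0952, and 0.937 for SJQYD against model. The ratio of Hbb-bt to Hbb-bs counts averaged 0.444 ± 0.0501, 0.510 ± 0.0601 and 0.508 ± 0.0436 (SD, n = 5). Its exact permutation p-values were 0.103 for model (adjusted 0.206) and 0.0397 for SJQYD (adjusted 0.0952) against control, and 1.0 between SJQYD and model. In the pooled test of NOD/LTJ against control the log2 differences were 0.49 and 0.20, with exact permutation p-values adjusted over 4 ratios of 0.00999 and 0.0377. The highest control library was exceeded by 6 of 10 NOD/LTJ libraries in the alpha pair and by 5 of 10 in the beta pair.

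Alas2 per globin count varied most in control. It came to 1.56%, 0.838%, 2.92%, 3.99% and 1.097% of the globin counts in control 1 to 5, a range below which only model 1 and SJQYD 5 lay. The means were 2.08 ± 1.33% in control, 1.057 ± 0.275% in model and 1.46 ± 0.7104% in SJQYD (SD, n = 5). The exact permutation p-values were 0.159 for model and 0.460 for SJQYD against control, and 0.302 between SJQYD and model.

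**Figure D4:**
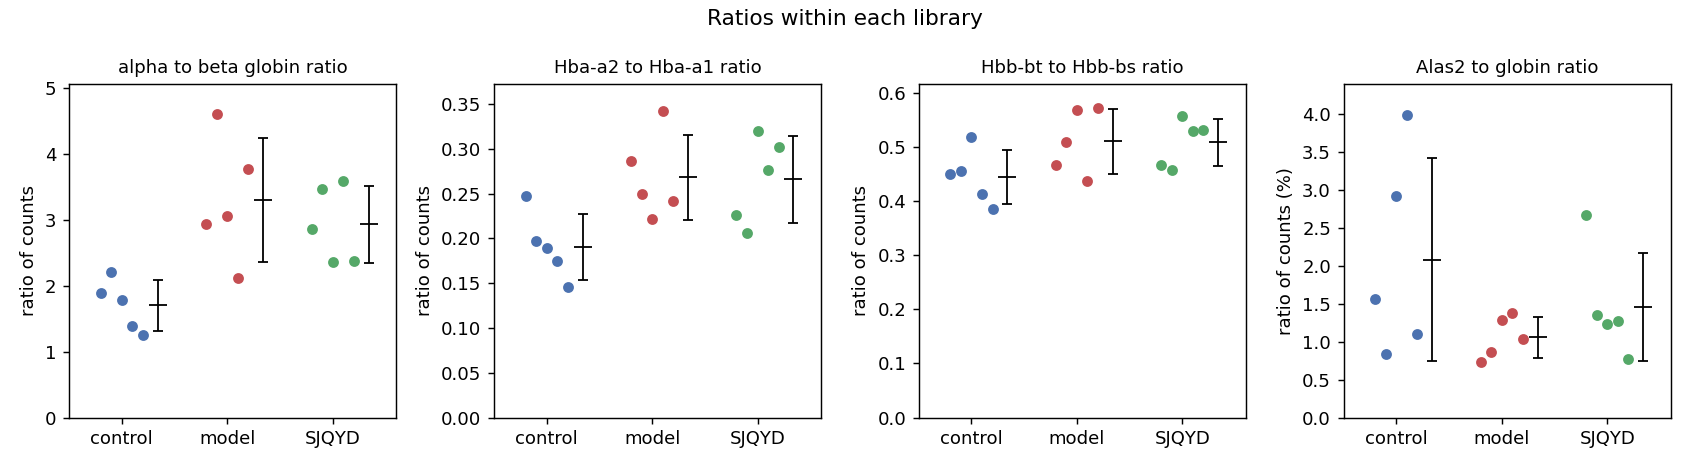
Ratios (4 in all) of counts within each library, with points in the order of replicates 1 to 5 and, to their right, the mean and SD of each group (n = 5). The alpha to beta ratio is 1.26 to 2.21 in control and 2.12 to 4.61 in the NOD/LTJ libraries.

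The globin genes varied together from library to library, and Alas2 did not follow them. Over the 15 libraries Pearson's r of log2 CPM was 0.964 between Hbb-bs and Hbb-bt (Spearman's rho 0.950) and 0.960 between Hba-a1 and Hba-a2 (rho 0.954). Between clusters it was 0.750 for Hba-a1 and Hbb-bs. Taken as deviations from the group means, these values were 0.970, 0.920 and 0.804. For Alas2 with each globin r was 0.17 to 0.40 over all libraries and -0.20 to -0.02 within groups. The genes of a pair share reads and all genes share the library scaling, so these are descriptions only.

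By the same measure the 6 genes most like Hbb-bs, apart from the other globins and 3 predicted genes that are not named, included Notch1 (r 0.800), Tmem43 (0.779), Ddias (0.778), Chaf1b (0.763) and Ptgs2 (0.759). By deviations from the group means they included Ddias (0.804), Notch1 (0.801), Lamc1 (0.777), Cdk1 (0.766) and Atl3 (0.759), with 4 predicted genes not named. Ddias and Ptgs2 were low, averaging 0.285 and 0.314 CPM, and no gene of the red cell lists below was among them.

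Other genes of the red cell were mostly too low to measure. Of 15 genes of the red cell membrane and skeleton, 11 had a median under 0.1 FPKM and 9 entered the test. Slc4a1 (band 3, the anion exchanger) had 0 to 29 counts per library. Epb42, Rhag and Kel were at 0 in at least 10 of 15 libraries. In edgeR none was called in model against control, where the median log2 fold change of the 9 was 0.56 against 0.03 over all genes. In that comparison 5.07% of all genes tested were called, a share at which a list of 9 can hold no call. Epb41 (protein 4.1, also used outside red cells) rose in SJQYD against model from 50.2 ± 2.61 to 67.1 ± 5.64 CPM (SD, n = 5), with a log2 fold change of 0.42 ± 0.09 (SE) and an edgeR adjusted p of 0.0127, and it was the only one of the 9 called there. Of all genes tested, 2.75% were called in that comparison.

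Few genes of red cell maturation were called. Of 28 listed, 20 were tested, and none was called in model against control in edgeR, with a median log2 fold change of 0.02. In that comparison 5.07% of all genes tested were called, a share at which a list of 20 can hold no call. Gata1, the master regulator of red cell genes, was at 0 in 11 of 15 libraries, and Klf1, an activator of adult beta-globin, had 0 to 37 counts. Tfrc, the transferrin receptor that imports iron, stood at 26.8 ± 5.35 CPM in control, 19.9 ± 3.89 in model and 25.2 ± 2.72 in SJQYD (SD, n = 5) and was not called. In SJQYD against model, Slc25a37 (mitoferrin, which carries iron into mitochondria) rose by 0.52 ± 0.11 (SE) on the log2 scale, with an adjusted p of 0.0209 in edgeR. Car2 (carbonic anhydrase, also a gene of salivary ducts) fell by 0.92 ± 0.19 on the log2 scale (edgeR adjusted p 0.0135). In SJQYD against control 2 fell, Car2 by 1.22 and Cat, or catalase, by 0.75 on the log2 scale, with adjusted p-values of 0.000913 and 0.0195 in edgeR, and the same genes fell with both NOD/LTJ groups against control. Cat was named after its values were seen. Of all genes tested, 2.75% were called in SJQYD against model. The share was 11.1% in SJQYD against control and 10.1% for both NOD/LTJ groups against control. The 2 of 20 called in each comparison with control just named are near those shares. With total counts alone Car2 had -0.59 against control and was not called (edgeR adjusted p 0.0798).

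Heme synthesis was measured by 11 genes besides Alas2, and in SJQYD against model Alas1 passed the test while Alas2 did not. Alas1 had 14.7, 16.6, 17.4, 13.4 and 12.5 CPM in model 1 to 5 and 37.7, 27.6, 33.5, 21.8 and 25.8 CPM in SJQYD 1 to 5. Every SJQYD library stood above every model and control library, and the control libraries ranged from 11.9 to 17.2 CPM. Alas1 rose with a log2 fold change of 0.97 ± 0.15 (SE) and an edgeR adjusted p of 0.0023 in SJQYD against model. It was the only one of the 11 called in this comparison, where the median log2 fold change of the 11 was 0.18 against -0.03 over all genes. The share called over all genes tested was 2.75% there. Fech, which inserts iron into the ring, was not called in edgeR in any of the comparisons.

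The calls of SJQYD against model in these lists depended on scaling, while the fold changes stayed near their size. With total counts alone and on the FPKM scale none of Alas1, Epb41, Slc25a37 and Car2 was called, and without the 3 libraries rich in parotid transcripts Alas1 was called (edgeR adjusted p 0.0126) and the others were not (0.0565 to 0.124). The log2 fold changes of Epb41, Slc25a37 and Car2 were 0.52, 0.65 and -0.85 with total counts alone and 0.43, 0.46 and -0.80 without those 3 libraries. Alas1 was not called with total counts alone (log2 fold change 1.13, edgeR adjusted p 0.207) or on the log2(FPKM + 1) scale (0.79, limma adjusted p 0.179). The ratio of Alas1 to Alas2 counts, chosen after the data were seen, needs no scaling. It was 5.66, 5.48, 4.75, 3.79 and 4.11 in model 1 to 5 and 8.07, 12.7, 11.9, 8.24 and 8.40 in SJQYD 1 to 5, with no overlap. The difference was 2.06-fold (log2 1.04), with a two-sided exact permutation p of 0.00794 and a value adjusted over 3 comparisons of 0.0119. In control the ratio was 5.33 to 7.89, below every SJQYD library and overlapping the model range, and the adjusted exact permutation p was 0.0119 against SJQYD and 0.0238 against model. Leaving out any 1 library kept every unadjusted value under 0.05, and without the 3 libraries rich in parotid transcripts it was 0.0286 for SJQYD against either other group and 0.0857 for model against control.

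In model against control, 1 of the 11 heme genes fell and none rose, with a median log2 fold change of 0.05. Tmem14c, which moves the heme precursor protoporphyrinogen IX into mitochondria, fell from 22.7 ± 7.04 to 9.73 ± 2.47 CPM (SD, n = 5), by 1.22 ± 0.22 (SE) on the log2 scale, with an edgeR adjusted p of 0.00522. With total counts alone it had -0.74 and an adjusted p of 0.0733. In SJQYD against control, 3 of the 11 rose (Alas1, Slc25a38 and Ppox) and 1 fell (Tmem14c). The call of Tmem14c was lost there with total counts alone (-0.44, edgeR adjusted p 0.204). It was also lost on the log2(FPKM + 1) scale (-0.42, limma adjusted p 0.173). Slc25a38 and Ppox were named here after their values were seen, and without SJQYD 3 Slc25a38 was not called (edgeR adjusted p 0.0584). The shares called over all genes tested were 5.07% in model against control and 11.1% in SJQYD against control.

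**Figure D5:**
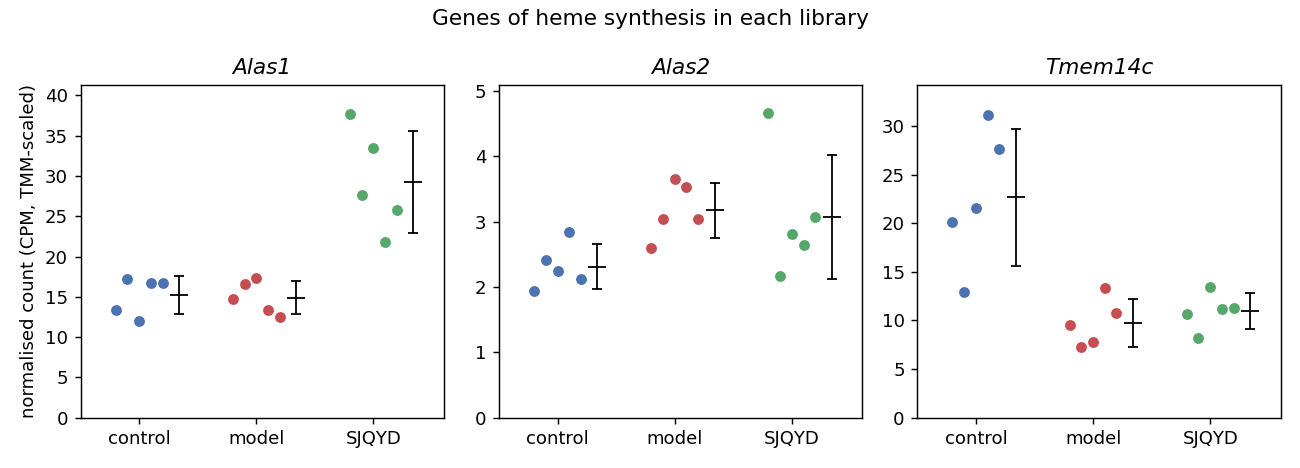
Normalised counts (CPM, scaled by TMM factors) of 3 genes of heme synthesis and its transport steps, Alas1, Alas2 and Tmem14c, with points in the order of replicates 1 to 5 and the mean and SD of each group (n = 5). Alas1 is at 21.8 to 37.7 CPM in SJQYD and at 11.9 to 17.4 CPM in the other groups.

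Clearance of hemoglobin and handling of iron were followed by 20 genes, all tested. In model against control, 1 fell: Slc11a2, an iron importer, by 0.70 ± 0.16 (SE) on the log2 scale with an edgeR adjusted p of 0.0178. It was not called with total counts alone, where it had -0.20. None was called in SJQYD against model, where 2.75% of all genes tested were called. In SJQYD against control 3 fell, chosen for naming after their values were seen: Fth1 (ferritin heavy chain) by 0.54, Hmox2 (heme oxygenase 2) by 0.67 and Slc48a1 (a heme transporter) by 0.43 on the log2 scale. With total counts alone each of the 3 had the opposite sign, at 0.02, 0.02 and 0.19. Without SJQYD 3, Hmox2 and Slc48a1 were not called, with edgeR adjusted p-values of 0.0530 and 0.0633. Over all genes tested, 5.07% were called in model against control and 11.1% in SJQYD against control. The 1 and 3 of 20 called here are near those shares.

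Genes that respond to free hemoglobin were not called by edgeR in any of the 4 comparisons. Hp, haptoglobin, averaged 50.3 ± 26.7 CPM in control, 50.3 ± 17.6 in model and 49.4 ± 21.5 in SJQYD (SD, n = 5). Hmox1, heme oxygenase 1, averaged 2.65 ± 0.360, 2.29 ± 0.598 and 2.01 ± 0.607 CPM. Cd163, the macrophage receptor for hemoglobin bound to haptoglobin, averaged 2.20 ± 1.78, 3.90 ± 1.37 and 2.56 ± 0.721 CPM.

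Markers of other cells that come with blood or with the dissection moved with some of these groups. Of 13 platelet markers, 12 had counts and 9 were tested. The summed level of the 12 was 4.67 to 8.77 CPM in control, 9.03 to 11.7 in model and 6.44 to 10.6 in SJQYD, with Gp6, Gp9 and Treml1 at 0 in at least 10 libraries. Gp1bb rose in model against control from 0.245 ± 0.0888 to 0.7099 ± 0.279 CPM (SD, n = 5; edgeR adjusted p 0.0452), and Pf4 fell by 1.25 ± 0.30 (SE) on the log2 scale in SJQYD against model (edgeR adjusted p 0.0344). Both calls were lost in most fits without 1 library, SJQYD 3 among them (edgeR adjusted p 0.0503 for Gp1bb and 0.0627 for Pf4), and Gp1bb also without the 3 libraries rich in parotid transcripts (0.0908). The 15 endothelial markers summed to 81.2 to 125 CPM in control, 103 to 145 in model and 103 to 206 in SJQYD. Egfl7 alone of the 15 was called in model against control, as higher, with an edgeR adjusted p of 0.0289. It was called in 9 of 15 fits without 1 library. With only the model and control libraries its edgeR adjusted p was 0.0618. Of all genes tested, 5.07% were called in model against control and 2.75% in SJQYD against model. The 12 muscle markers with counts summed to 11.8 to 22.9, 22.8 to 38.9 and 22.3 to 40.01 CPM, with Myh4 and Pvalb at 0 in at least 10 libraries. Of the 8 tested, Tnnt3, Ryr1 and Eno3 were called by edgeR as higher in model than in control. In SJQYD against control, and with both NOD/LTJ groups against control, 3 of the 8 were called as higher. The shares over all genes tested were 11.1% and 10.1% there.

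Markers of lymphocytes lay higher in model than in 4 of the 5 control libraries, though edgeR called none of them in model against control or SJQYD against model. The 10 B cell markers reached 0.394 to 94.1 CPM in control, 43.7 to 103 in model and 13.4 to 64.5 in SJQYD, and control 2 was the only control library above 15.1 CPM. The 11 T cell markers reached 4.94 to 78.7, 21.8 to 171 and 8.89 to 106 CPM, again with control 2 the highest control library. In model against control all 10 B cell and all 11 T cell markers had a positive log2 fold change (medians 1.56 and 2.03), and in SJQYD against model none had (medians -1.05 and -1.10). The 16 neutrophil markers with counts reached 1.11 to 79.6, 6.52 to 55.5 and 1.64 to 62.9 CPM, with S100a9, Ngp, Camp, Elane and Ly6g among the 9 at 0 in at least 10 libraries. The 12 adipocyte markers reached 23.9 to 46.4, 34.6 to 498 and 32.04 to 344 CPM. The part of these cells in the globin results was not tested.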

How the data were processed

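RNA from submandibular glands of 15 mice was sequenced, 5 per group, from poly(A) selected, stranded libraries with molecular identifiers, per the labels. Per the submitters' processing notes reads were handled with tools that include HISAT2 2.0.4 and cutadapt 1.9, UMI-tools for the identifiers, and edgeR, DESeq2 and StringTie 1.3.4d. The notes name the build mm9, but the deposited coordinates of the 5 genes equal GRCm38 (GENCODE M21) except for the end of Hbb-bs. The main values are whole-number counts per gene as deposited by the authors (55401 genes). Levels per length are FPKM values deposited by the authors. How reads that match several places were counted is not given in the sources used here.

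Genes passing filterByExpr (18136, all 5 members among them) were fitted with edgeR 4.0.16 in R 4.3.3: TMM factors, robust quasi-likelihood, 1 mean per group over all 15 libraries, Benjamini-Hochberg adjustment over all genes, a call being an adjusted p under 0.05. Intervals are at 95%. Ratios within libraries were tested by two-sided exact permutation of log2 ratios. Alternatives were other scaling factors, other filters, DESeq2 1.42.0, limma 3.58.1 on voom values or log2(FPKM + 1), a replicate block and leaving out libraries. The pooled NOD/LTJ ratio test and the Alas1 to Alas2 ratio were added after seeing the data. The members and the gene lists were chosen with earlier results of these data known. The text names all members, up to 4 genes per list with the smallest p among those called in model against control or SJQYD against model, a few reference genes whatever their values, and the 6 genes most correlated with Hbb-bs. No libraries were copies of each other (least chi-square per gene between 2 libraries of a group 70.5). Hbb-b1, Hbb-b2 and Ahsp were not analysed here. Some genes of the lists and of the genes most correlated with Hbb-bs are not reported here.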

Additional observations from a re-analysis of the deposited data

Results flagged for a closer look

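Hba-a1 in SJQYD 5 stood apart from its group, at 214.9 CPM against 103 to 127 CPM in the other 4 SJQYD libraries. The gap to the nearest library was 0.781 of the range of the group, above Dixon's critical value of 0.71 for 5 samples. Of 27 groups tested this was 1, and chance alone marks about 1 in 20. SJQYD 5 was also the highest SJQYD library for Hba-a2, Hbb-bs and Hbb-bt, but not for Alas2.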

How the results depend on the processing

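Depth did not limit the globin genes, which had at least 318 counts per library, while Alas2 and the red cell genes at or near 0 rest on few counts. The alpha-globin fold changes from control kept their direction under every alternative run, but the calls did not, and the cause was not tested. In model against control, where 1 of the 5 genes was called, 2 were called with no normalization factors, DESeq2, voom, log2(FPKM + 1) with or without a filter, and without the 3 libraries rich in parotid transcripts, 3 with log2(FPKM + 0.1), and 0 with no filter on low counts or with only the 2 groups in the fit. In SJQYD against control, where 0 were called, the count was 3 with no factors, 1 with DESeq2, 2 with voom, 2 with log2(FPKM + 1), 1 with log2(FPKM + 1) and no filter, 3 with log2(FPKM + 0.1) and 2 without those 3 libraries. For both NOD/LTJ groups against control, where 1 was called, it was 3 with no factors, 0 with no filter, 2 with DESeq2 or voom, 4 on either FPKM scale, 2 on the FPKM scale without a filter and 2 without those 3 libraries.

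The replicate numbers did not pair the samples: the 15 same-numbered pairs had correlations of deviations from -0.23 to 0.16, and 4 of 15 libraries correlated best with their own number. With a replicate block 2 of the 5 genes were called in model against control, Hba-a1 (log2 fold change 1.38, edgeR adjusted p 0.0333) and Hba-a2 (1.83, 0.0448), and 2 for both NOD/LTJ groups against control.

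Leaving out 1 library at a time gave 0 to 2 members called in each comparison with control and 0 in SJQYD against model. The alpha to beta log2 difference ranged from 0.81 to 1.09 in model against control, from 0.69 to 0.89 in SJQYD against control and from -0.29 to -0.01 in SJQYD against model. For Hba-a2 to Hba-a1 the ranges were 0.40 to 0.59, 0.39 to 0.58 and -0.084 to 0.079, and for Hbb-bt to Hbb-bs 0.15 to 0.26, 0.15 to 0.25 and -0.055 to 0.042. Alas2 to globin ranged from -1.04 to -0.48, from -0.65 to -0.09 and from 0.14 to 0.59. Alas2 in SJQYD against model ranged from -0.23 to 0.059, and in SJQYD against control Hbb-bs ranged from -0.26 to 0.34 and Hbb-bt from -0.025 to 0.63.

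Pooling the NOD/LTJ groups, an alternative chosen after seeing the data, brought the ratio differences of 0.86 (alpha to beta), 0.49 (Hba-a2 to Hba-a1) and 0.20 (Hbb-bt to Hbb-bs) past the threshold. Signs turned in small values: Hbb-bt to Hbb-bs in SJQYD against model was 0.069 without the 3 libraries rich in parotid transcripts, and Alas2 in SJQYD against model was 0.16 with no factors and 0.024 on the log2(FPKM + 1) scale with or without a filter. In SJQYD against control, Fth1 was 0.019 with no factors, 0.0011 on the log2(FPKM + 1) scale and 0.0012 with a pseudocount of 0.1, Hmox2 was 0.016 with no factors, and Slc48a1 was 0.19, 0.13 and 0.14 in the order given for Fth1.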
